A study of Mus musculus with 8 samples.

Results

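Dab1, Reln, Vldlr and Lrp8 are 4 genes of the Reelin signalling pathway. They were taken by their Ensembl identifiers from a table of 26165 mouse genes, and all 4 had a row there. Dab1 is ENSMUSG00000028519, Reln is ENSMUSG00000042453, Vldlr is ENSMUSG00000024924 and Lrp8 is ENSMUSG00000028613. Expression had been measured on 8 arrays in epithelium of the lower molar tooth germ at embryonic day E13.5. The first group was 4 pools of Foxi3 cKO epithelium. Its genotype label names the K14-cre43 transgene and a floxed Foxi3 allele, and the design text of the series adds a null allele on the other chromosome. The second group was 4 pools titled wild type, with a genotype label of Foxi3+/floxed that mentions no Cre and no null allele. A difference between the groups may thus come from the transgene, from the null allele or from loss of Foxi3 in epithelium, and these cannot be told apart. Each pool held the dispase-separated molar epithelium of 5 embryos of 1 genotype, so no value belongs to a single embryo. The keratin 14 promoter drives the Cre in epithelium. Foxi3 itself and markers of epithelium or of other cells were not analysed here. The deletion and the labelled tissue are therefore taken from the labels, without a check on the arrays.

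Reelin, encoded by Reln, is a large secreted glycoprotein. It binds 2 receptors of the low-density lipoprotein receptor family, the VLDL receptor (Vldlr) and apolipoprotein E receptor 2 (Lrp8). Dab1 is the adaptor inside the cell: its phosphotyrosine-binding domain docks on the tails of both receptors, and kinases of the Src family phosphorylate it when Reelin clusters them. The pathway is best known for placing migrating neurons in the layers of the cortex and cerebellum, and mice without Reelin (reeler) or without functional Dab1 (scrambler, yotari) show disordered layers and an unsteady gait. Both receptors also bind other ligands, among them apolipoprotein E. Foxi3, the gene deleted here, encodes a forkhead transcription factor of embryonic ectoderm, and a mutation of it in hairless dog breeds goes with sparse hair and missing teeth.

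Dab1 was higher in Foxi3 cKO epithelium, by 1.56-fold, and all 4 cKO arrays lay above all 4 wild-type arrays. Reln, the ligand, averaged 1.16-fold of wild type in the cKO, with overlapping arrays. The receptors differed less, at 1.03-fold of wild type for Vldlr and 0.974-fold for Lrp8, and their groups overlapped as well. These values are a description and not a test. Dab1 was chosen by its difference between cKO and wild type on these same arrays, and the other 3 genes were added as its pathway partners with results of the comparison known. In a limma fit over all genes, 1 of the 4 genes, Dab1, was called at an adjusted p under 0.05, as were 1.31% of all genes, and since the choice of Dab1 used this contrast nothing is read from that count. Groups did not overlap in 1 of the 4 genes, again Dab1, and in 7.85% of all genes. In tissue pools such as these, more cells of a type and more RNA per cell cannot be told apart.

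**Figure D1:**
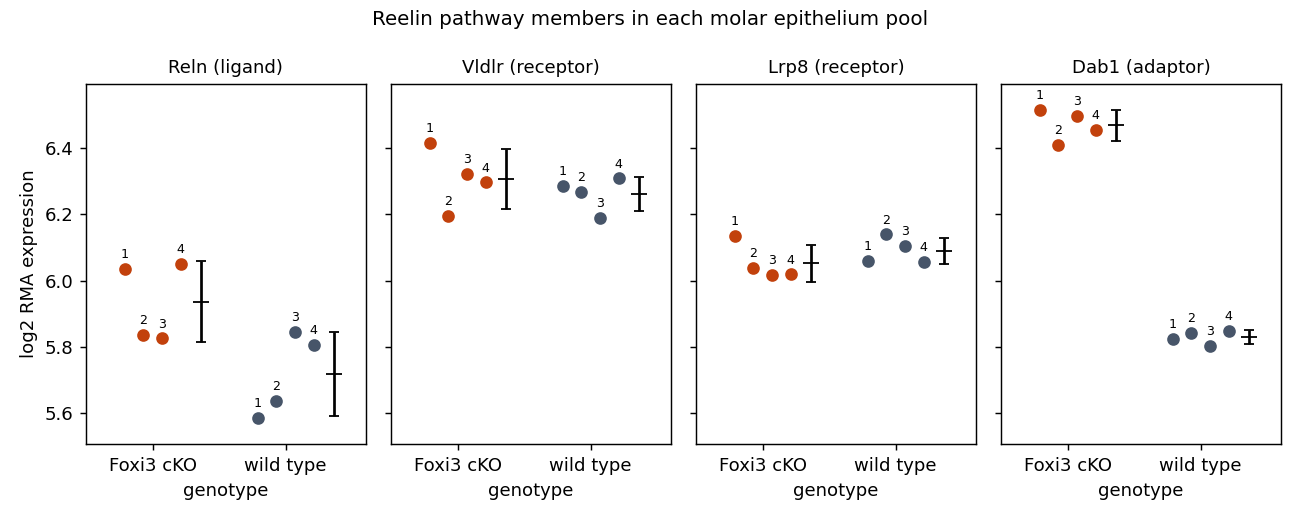
Log2 RMA expression (y axis) of Reln, Vldlr, Lrp8 and Dab1 in each array, with Foxi3 cKO left of wild type. Points are single pools numbered by replicate, bars beside them are the mean and SD of 4 arrays, and levels of different genes are not comparable. The Dab1 arrays form separate groups at 6.41 to 6.51 in the cKO and 5.80 to 5.85 in wild type, while the groups of the other 3 genes overlap.

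The sequences around the start sites of Dab1 and Reln are shown because these genes had the larger differences of the 4, and because Dab1 has 2 listed starts that a single array row cannot separate. Each runs from 250 bases before to 50 bases after a transcript start in RefSeq's annotation of GRCm38.p6, so its end lies in the first exon. They are given 5′ to 3′ on the strand of the gene, with CpG dinucleotides in capitals. The first Dab1 window is chr4:104367288-104367587 on the plus strand. The second Dab1 window, chr4:103619250-103619549 on the plus strand, belongs to a start farther upstream. The Reln window is chr5:22344656-22344955 on the minus strand.
Dab1 start 1: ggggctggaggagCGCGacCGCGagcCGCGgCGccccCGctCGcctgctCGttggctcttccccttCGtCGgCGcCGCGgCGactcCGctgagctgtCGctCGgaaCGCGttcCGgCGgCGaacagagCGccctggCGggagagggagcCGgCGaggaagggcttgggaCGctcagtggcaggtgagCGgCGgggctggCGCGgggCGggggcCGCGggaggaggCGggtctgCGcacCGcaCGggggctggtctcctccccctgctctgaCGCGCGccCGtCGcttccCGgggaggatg
Dab1 start 2: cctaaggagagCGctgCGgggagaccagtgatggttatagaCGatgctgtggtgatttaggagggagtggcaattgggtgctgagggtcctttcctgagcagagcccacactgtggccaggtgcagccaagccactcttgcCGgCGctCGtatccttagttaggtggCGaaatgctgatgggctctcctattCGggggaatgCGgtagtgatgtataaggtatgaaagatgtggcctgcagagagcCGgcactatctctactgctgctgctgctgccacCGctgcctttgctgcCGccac
Reln: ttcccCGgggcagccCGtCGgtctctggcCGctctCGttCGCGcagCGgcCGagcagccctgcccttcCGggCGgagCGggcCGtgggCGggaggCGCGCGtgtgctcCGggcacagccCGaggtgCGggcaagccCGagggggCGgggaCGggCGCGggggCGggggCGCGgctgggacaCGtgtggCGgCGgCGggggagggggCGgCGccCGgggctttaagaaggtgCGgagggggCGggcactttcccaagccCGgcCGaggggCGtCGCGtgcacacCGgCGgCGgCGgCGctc

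The first Dab1 window and the Reln window were both rich in CpG. The first Dab1 window held 46 CpG dinucleotides and was 77.3% G or C. The Reln window held 47 and was 80.7% G or C. Of 32851 mouse promoter windows of the same length, 98.4% had fewer CpG than the first Dab1 window and 98.6% fewer than the Reln window, against a median of 7. The upstream Dab1 window, with 12 CpG and 57.3% G or C, was closer to the middle, and 60.4% of windows had fewer. The receptors' windows were less dense than the first Dab1 window, but the second Vldlr and the first Lrp8 window were denser than the upstream Dab1 window. Vldlr had 8 and 23 CpG at its 2 listed starts, and Lrp8 had 21, 5 and 4 at its 3 listed starts. Whether CpG density goes with the expression differences was not tested.

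**Figure D2:**
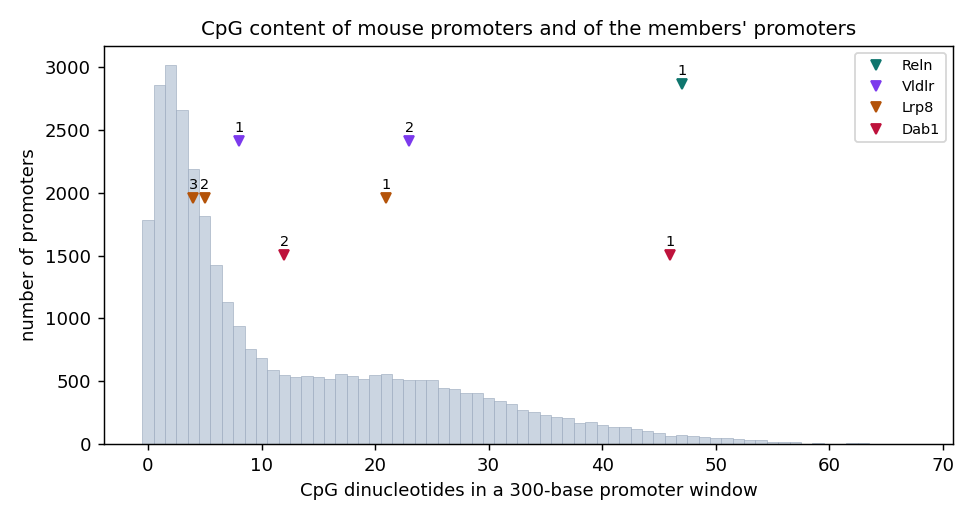
Number of mouse promoters (y axis) by the CpG dinucleotides in their 300-base window (x axis). Triangles mark the windows of the 4 genes, numbered by listed start, and their height has no meaning; the Reln window at 47 and the first Dab1 window at 46 lie in the far right tail, and the others lie between 4 and 23.

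Because the deleted gene encodes a forkhead factor, the windows were searched on both strands for forkhead core letters. These were TGTTTAC and the shorter cores TGTTTA, which lies inside it, and TGTTTG. None of the 8 windows of the 4 genes held any of them. Among all 32851 windows, 3.65% held TGTTTAC, 13.4% held TGTTTA, 18.2% held TGTTTG and 28.2% held at least 1 of the shorter cores. The cores are mostly A and T, and these shares are not matched for base composition. Of the 8 windows only the first Vldlr window, at 43% G or C, lay below the median of 52.7% over all windows. The absence says only that these letters are not in these windows.

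Reln, the ligand, had log2 expression of 6.03, 5.84, 5.83 and 6.05 in cKO replicates 1 to 4, against 5.59, 5.64, 5.85 and 5.81 in wild-type replicates 1 to 4. The groups overlapped: cKO replicates 1 and 4 were above every wild-type array, cKO replicates 2 and 3 were just below wild-type replicate 3, and wild-type replicates 1 and 2 were lowest. The means were 5.94 ± 0.12 in the cKO and 5.72 ± 0.13 in wild type (SD, n = 4 each). The difference, cKO minus wild type, was 0.22 on the log2 scale (SE 0.082). All 4 cKO arrays were above the wild-type mean, and the cKO array was the higher in 14 of the 16 possible pairs of a cKO and a wild-type array. For Vldlr the cKO array was the higher in 12 of the 16 pairs, and for Lrp8 in 3. Reln was not called in the limma fit (adjusted p 0.41). A difference of at least the size of that in Reln, in either direction, was found in 8.87% of all genes. Reln was also the most variable of the 4 genes. Its SD within genotypes, pooled over both, was 0.12, above that of 58.8% of all genes, while the median gene had 0.108.

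Vldlr, the first of the receptors, had log2 expression of 6.42, 6.20, 6.32 and 6.30 in cKO replicates 1 to 4, against 6.28, 6.27, 6.19 and 6.31 in wild-type replicates 1 to 4. The groups were mixed: cKO replicates 1 and 3 lay above every wild-type array, and cKO replicates 2 and 4 lay inside the wild-type range. The means were 6.31 ± 0.090 in the cKO and 6.26 ± 0.051 in wild type (SD, n = 4 each). The difference was 0.045 (SE 0.056), smaller than its own standard error, and 63.7% of all genes differed by at least as much. Without cKO replicate 1 it was 0.0087, and without cKO replicate 2 it was 0.082, so single arrays set its size.

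Lrp8, which encodes the other Reelin receptor, had log2 expression of 6.13, 6.04, 6.02 and 6.02 in cKO replicates 1 to 4, against 6.06, 6.14, 6.10 and 6.06 in wild-type replicates 1 to 4. Here 3 of the 4 cKO arrays lay below every wild-type array, and cKO replicate 1 lay near the top of the wild-type range. The means were 6.05 ± 0.055 in the cKO and 6.09 ± 0.040 in wild type (SD, n = 4 each). The difference was −0.038 (SE 0.045), and 68.2% of all genes differed by at least as much. It was −0.066 without cKO replicate 1 and −0.022 without wild-type replicate 2. With each array centred on its median it was −0.0039. With 4 arrays in each group, receptor differences near these standard errors were not detectable, and the values do not show that either receptor was unchanged.

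Dab1, the adaptor, had log2 expression of 6.51, 6.41, 6.50 and 6.45 in cKO replicates 1 to 4, against 5.82, 5.84, 5.80 and 5.85 in wild-type replicates 1 to 4. The lowest cKO array, replicate 2, stood 0.56 above the highest wild-type array, replicate 4. The means were 6.47 ± 0.046 in the cKO and 5.83 ± 0.021 in wild type (SD, n = 4 each). The difference was 0.64 on the log2 scale (SE 0.041), a 1.56-fold higher signal in the cKO. RMA narrows fold changes, so the ratio of transcripts may be larger. Choosing Dab1 by its difference on these same arrays can instead make that difference too large. Neither bias was measured. The cKO arrays covered a range of 0.10 and the wild-type arrays one of 0.045, both well under the distance between the groups.

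Dab1 also had the smallest spread within genotypes of the 4 genes. Its pooled SD within genotypes was 0.036, and 4.59% of all genes had a smaller one. The pooled SD was 0.048 in Lrp8, 0.073 in Vldlr and 0.12 in Reln. By size of difference in either direction Dab1 ranked 96 of 26165 genes, and by positive difference alone it ranked 43. By the distance between the nearest arrays of the 2 groups it ranked 27. It ranked 31 by size among the 180 genes called higher in the cKO (0.688% of all genes), whose median difference was 0.43 and whose largest was 5.50-fold. These ranks describe the values that led to the choice of Dab1.

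**Figure D3:**
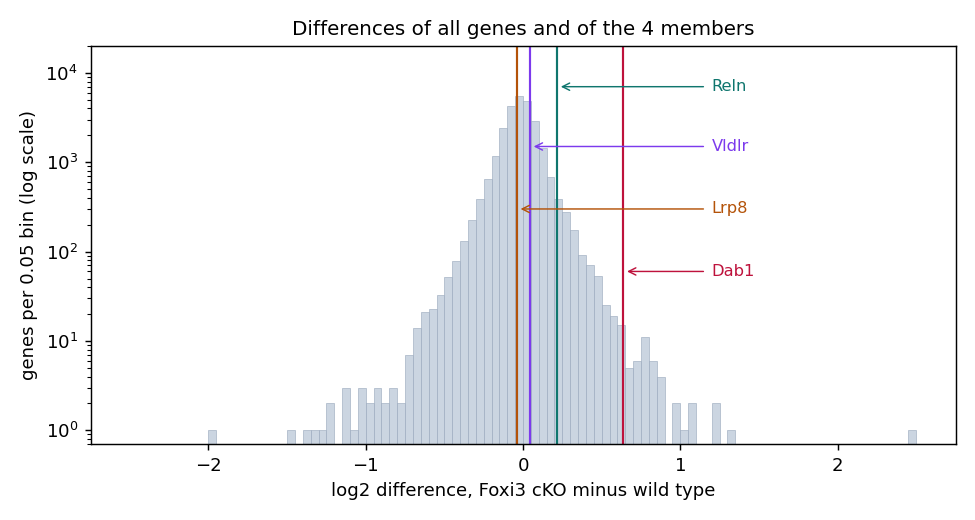
Number of genes (y axis, log scale) by log2 difference, Foxi3 cKO minus wild type (x axis, bins of 0.05), over all 26165 genes. Vertical lines mark the 4 genes: Lrp8 at −0.038 and Vldlr at 0.045 lie in the bulk, Reln at 0.22 at its right edge and Dab1 at 0.64 in the right tail.

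Over all genes the middle of the differences was near 0, with a median of −0.018 and 5th and 95th percentiles of −0.22 and 0.19. Reln therefore lay just past the 95th percentile and Dab1 far past it, while both receptors lay well inside. Array medians were 5.26 to 5.30 in the cKO arrays and 5.25 to 5.28 in wild-type replicates 1, 3 and 4, but 5.44 in wild-type replicate 2. That array held the second-highest wild-type value of Dab1 and the highest of Lrp8, but the second-lowest of Reln and of Vldlr. Without it the differences were 0.64 for Dab1, 0.19 for Reln, 0.047 for Vldlr and −0.022 for Lrp8. Among the cKO arrays, replicate 1 gave the highest value for Dab1, Vldlr and Lrp8 and the second-highest for Reln. When arrays were weighted by how well they followed the fit, cKO replicate 1 had a weight of 0.64, against 1.37 to 1.79 in the other cKO arrays. The lowest weight of all 8 arrays, 0.20, was that of wild-type replicate 2, and wild-type replicates 1, 3 and 4 had 0.97 to 1.69. Without cKO replicate 1 the differences were 0.62 for Dab1, 0.18 for Reln, 0.0087 for Vldlr and −0.066 for Lrp8. With all 8 arrays kept but weighted, the differences were 0.63 for Dab1, 0.17 for Reln, 0.013 for Vldlr and −0.034 for Lrp8.

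**Figure D4:**
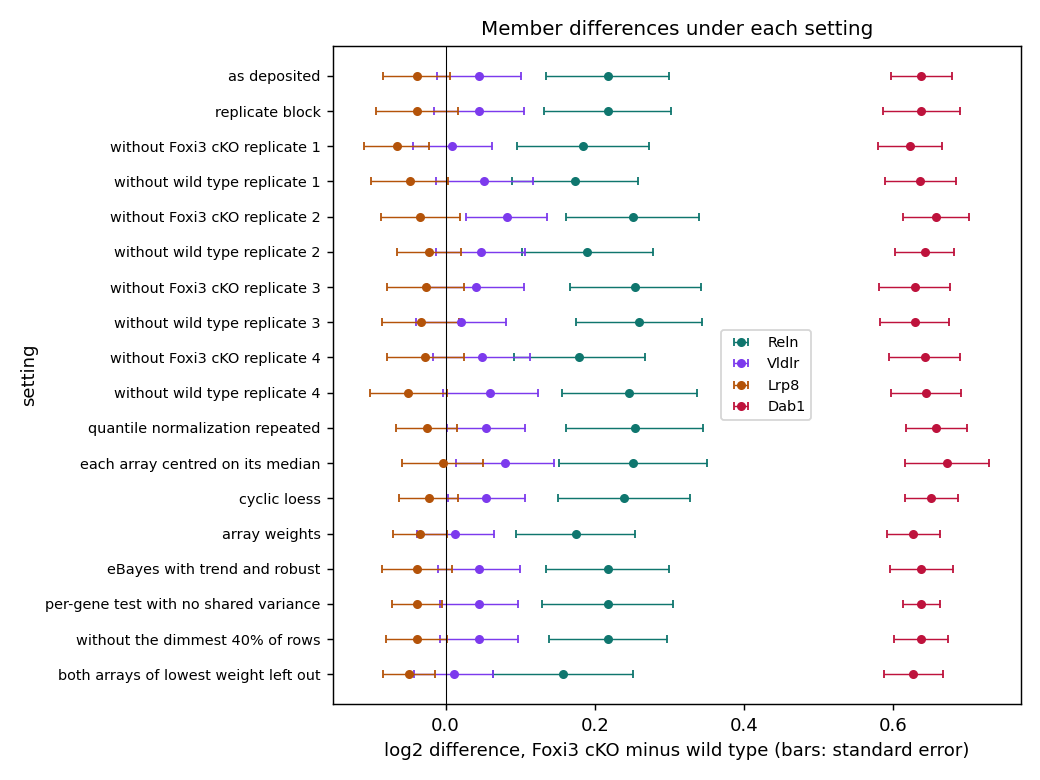
Log2 difference, Foxi3 cKO minus wild type (x axis), of the 4 genes under each setting of the fit (y axis); points are estimates and bars their standard errors. Dab1 stays between 0.62 and 0.67 and Reln between 0.16 and 0.26, while Vldlr (0.0087 to 0.082) and Lrp8 (−0.066 to −0.0039) stay near 0.

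The gene rows most like Dab1 over the 8 arrays were found by Pearson correlation with Dab1, as a description. The groups lie apart in Dab1, so the correlation mostly reflects the genotype difference, and 237 of the other 26164 genes had a correlation over 0.9 and 244 one under −0.9. The closest was ENSMUSG00000063446, at 0.994. Its expression averaged 7.23 ± 0.054 in the cKO and 6.47 ± 0.038 in wild type (SD, n = 4 each), a difference of 0.75. Next came ENSMUSG00000031073, at 0.993, with a much larger difference of 2.46. The most opposite was ENSMUSG00000044433, at −0.993. Its cKO arrays ran from 7.83 to 7.87 and its wild-type arrays from 7.99 to 8.01, a small difference of −0.15. It was not called in the limma fit (adjusted p 0.12), while the other genes found by correlation were, as were 1.31% of all genes. Separate groups in these genes, and largely their calls too, follow from their choice by correlation with Dab1. Nothing is read from either. ENSMUSG00000020467, at −0.990, averaged 6.36 ± 0.028 in the cKO and 6.87 ± 0.055 in wild type (SD, n = 4 each). These genes are given by identifier because no table used here pairs it with a symbol.

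RefSeq places Dab1 and Lrp8 on chromosome 4, with 32 protein-coding genes annotated between them, Reln on chromosome 5 and Vldlr on chromosome 19. The differences of the 2 genes on chromosome 4 were 0.64 for Dab1 and −0.038 for Lrp8. RefSeq lists 6 curated coding and 24 predicted transcripts for Dab1, 6 and 22 for Lrp8, 3 and 10 for Vldlr, and 2 and 0 for Reln. The table has 1 value per gene, so which Dab1 transcript or start accounts for the higher signal was not measured.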

How the data were processed

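Expression of 8 epithelial pools was measured on Affymetrix arrays, labelled with the WT Terminal Labeling Kit per the labels' protocols. The authors deposited RMA values on a log2 scale, per the submitters' processing notes, whose RMA version, array design and genome build are not given in the sources used here. This method subtracts background, equalises array distributions and summarises probes per gene. The medians of the deposited values still differed between arrays, from 5.25 in wild-type replicate 3 to 5.44 in wild-type replicate 2. Values ran from 1.13 to 12.6, no 2 arrays were identical, and no detection calls are used.

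The 4 members come paired with identifiers, and they and the gene lists were chosen with earlier results of these data known. None of the 26165 identifiers could be matched to a symbol through RefSeq's table, so the planned pathway, neighbour and cell marker lists were not analysed here. For the same reason the genes most like Dab1 are 2 in each direction, by the rule for rows without symbols.

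Genotypes, taken from the sample titles, entered 1 model for all genes in limma 3.58.1, run under R 4.3.3, with lmFit and eBayes, no other term and no filter. Tests were two-sided and adjusted by Benjamini-Hochberg over all genes, with calls at an adjusted p under 0.05. The SE is limma's moderated standard error. The script was tested on simulated data. Alternatives were a block for the replicate number, removal of arrays, other normalizations, array weights, other variance priors, and dropping the dimmest 40% of rows, which all 4 genes passed. Pools are the replicates, and their number limits the precision. Promoter windows and their build, GRCm38.p6, are RefSeq's, and protein sequences were not used here.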

Additional observations from a re-analysis of the deposited data

Results flagged for a closer look

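Each quantity was checked, within a genotype, for an extreme array far from its 3 fellows. Of 18 checks 1 stood out, where chance flags about 1 in 20: the median signal of wild-type replicate 2 was 5.44, whereas wild-type replicates 1, 3 and 4 had medians from 5.25 to 5.28. None of the 8 checks on Reln, Vldlr, Lrp8 and Dab1 stood out. The nearest was Lrp8 in the cKO, where replicate 1 at 6.13 lay apart from 6.02 to 6.04, with a gap of 0.818 of the range against a critical value of 0.829.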

How the results depend on the processing

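Dab1 was called in all 17 alternatives run for it, with differences of 0.62 to 0.67, and Reln (0.16 to 0.26), Vldlr (0.0087 to 0.082) and Lrp8 (−0.066 to −0.0039) in none of their 17. All kept their sign, and none moved by more than its SD within genotypes. For Vldlr and Lrp8 that SD (0.073 and 0.048) is larger than the difference itself (0.045 and −0.038). Losing either receptor difference would thus not count as a move, and the rule says little about them. Dab1 was chosen from this contrast and every alternative reuses these arrays, so its calls here are a description and not a test. Leaving out 1 array gave 0.62 to 0.66 for Dab1, 0.17 to 0.26 for Reln, 0.0087 to 0.082 for Vldlr and −0.066 to −0.022 for Lrp8. The count of members called, followed after the data had been seen, was 1 in each of 18 alternatives. That member was always Dab1, which was chosen from this contrast, so nothing is read from the count. Over the same alternatives 18 to 575 of all 26165 genes were called, against 342 (1.31%) in the main fit. With the replicate number as a block, the Dab1 difference was 0.64 (SE 0.051) and it was still called, while 18 genes were called over the whole table with the block, against 342 without it. Same-numbered arrays did not deviate together (correlations of −0.090 to 0.020), and for 1 of the 4 cKO arrays the best-correlated wild-type array bore the same number, so the numbers were not taken as pairs. The whole-table count was 119 to 303 with 1 array left out, 106 without both arrays of lowest weight (chosen after seeing the data), 196 with arrays centred on their median, 575 with array weights and 181 with no shared variance. Fewer arrays enter the first 2 of these settings, and otherwise the cause was not tested. The count was 348 with quantile normalization repeated, 344 with cyclic loess normalization and 449 with a trended and robust variance prior. It was 503 without the dimmest 40% of rows and 505 at an adjusted p under 0.1. The longer planned lists of other pathway genes could not be matched to identifiers, so they have neither a count of calls nor alternatives. The table gives no signal over background, so how dim a signal can be read was not measured.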
